A study of Trametes elegans with 15 samples.

Results

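Wheat straw was compared with maltose as the growth substrate of *Trametes elegans*, a wood-decay fungus named *Artolenzites elegans* in the sample titles. The comparison takes in all 949 of the 949 genes in the deposited table, genes of very high level included, and sets the value of each gene on straw against its value on maltose. Mycelium of strain BRFM 1663 was grown for 3 days at 30 °C in shaken flasks, in 1 mineral medium with yeast extract and thiamin. The control medium held 20 g/l of maltose, and the straw medium held 15 g/l of sifted straw fragments with 2.5 g/l of maltose. The labels list 3 samples on each medium, and also 3 samples each on microcrystalline cellulose (Avicel), pine and aspen, each with 15 g/l of solid. The cellulose and pine media also held 2.5 g/l of maltose, and the amount in the aspen medium is not legible in the labels. Solid and maltose content both differ between the straw and control media, and their effects cannot be told apart.

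White-rot fungi break down plant cell walls with enzymes that they release into the medium. These include cellulases and oxidases that cut crystalline cellulose, xylanases and esterases that act on hemicellulose, and peroxidases and laccases that act on lignin. Straw is a grass cell wall, rich in arabinoxylan, whereas maltose is a soluble disaccharide of glucose. In many fungi an easily used sugar represses the genes of wall-degrading enzymes. The table lists genes by number only and pairs no number with a name, a family or a sequence, so no role is given to any gene below.

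A level is the deposited log2(normalised read count + 1), with 1 value per gene and medium. It is not divided by transcript length, so an order of genes by level is an order of read counts. The decimals of these values were used to recover whole reads per library, for 2 straw libraries, named a and b, and for 3 maltose libraries, named a to c. These letters follow the size of a scaling factor and are not the replicate numbers of the labels. The straw value rests on 2 libraries, and 1 of the 3 labelled straw samples is not analysed here. The recovered reads over the 777 genes found in every library of the 5 media summed to 486732 to 540164 on maltose and to 1146137 and 869785 on straw. These sums cover part of each library, and the full depth is unknown. The labels do not say that samples came from separate cultures, so p-values reflect only how far these libraries scatter, which may be technical variation. A gene is said to have risen or fallen where the log2 difference was at least 1 with a limma adjusted p under 0.05, and 846 genes could be tested.

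On straw, 297 of the 846 tested genes rose and 100 fell. These are 35.1% and 11.8% of the genes tested, or 46.9% in either direction. The 103 untested genes, of high maltose level, leaned the other way, with 26 lower on straw by at least 1 and 6 higher. The median change was 2.52 among the genes that rose and -1.64 among those that fell. In 296 of the 297 risen genes both straw libraries lay above all 3 maltose libraries, and in 99 of the 100 fallen genes both lay below. The calls were made on these same libraries, which by itself favours such separation. Over all 949 listed genes, the deposited value was higher on straw by at least 1 for 306 genes (32.2%) and lower for 128 genes (13.5%). With each column centred on its median over the listed genes these counts were 182 and 422, so the balance turned with the scaling. In the deposited values the excess of higher genes was larger among the large differences. A difference of at least 2 was seen upward for 194 genes (20.4%) and downward for 49 (5.16%), and one of at least 4 for 91 (9.59%) and 15 (1.58%). A difference of at least 6 was seen upward for 40 genes (4.21%) and downward for 3 (0.316%), and one of at least 8 for 16 (1.69%) and 1 (0.105%). The other 515 genes differed by less than 1, and 177 of them by less than 0.25.

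**Figure D1:**
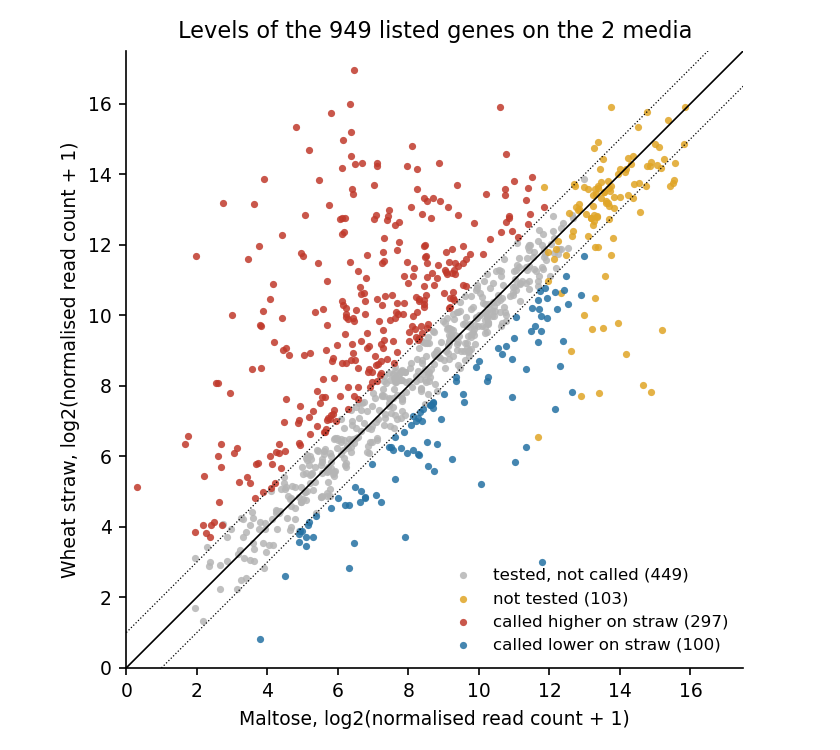
Each point is 1 of the 949 listed genes, with its deposited level on maltose on the horizontal axis and on wheat straw on the vertical axis, both as log2(normalised read count + 1). The solid line marks equal levels and the dotted lines a difference of 1; the 297 called rises spread far above the line at low and middle maltose levels, and the 103 untested genes lie at high maltose levels.

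How the calls divide into rises and falls depended on how libraries are scaled. With the deposited scaling, rises made up 74.8% of the called genes. Their share was 39.0% once each library was centred on its own median. Quantile normalisation gave 42.4%, and centring libraries on the median of their differences from the means of the genes gave 63.4%. Median centring lowered every difference by 0.98 and centring on the median difference by 0.35. Median centring and quantile normalisation rested on the 777 genes recovered in every library. That set leaves out genes of very high level on the other media but not those high on straw alone. Centring each column on its median over all 949 genes lowered every difference by 1.11. Of the 949 genes, 177 lay within 0.25 of no difference. Within 0.25 of the shift lay 141 genes for centring on the median difference and 85 for median centring. The genes of this table are a selection whose rule the sources used here do not give, so no scaling was preferred over the deposited one. The 12 largest rises and the 3 tested genes among the largest falls, described next, kept their call and direction under each of these scalings that could be applied to them.

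The 12 largest rises carried genes from low levels on maltose to high levels on straw. Their levels ran from 1.96 to 6.47 on maltose, with a median of 5.32, and from 11.69 to 16.97 on straw, with a median of 14.83. Straw gave the highest of the 5 media for all 12, and for 228 of the 949 genes. Picking these 12 genes by a large rise itself favours a low maltose level and this rank. The leading gene, 848748, held 36, 32 and 24 reads in the maltose libraries and 60252 and 26808 reads in the straw libraries. Its level rose from 4.82 ± 0.24 (SD, n = 3) to 15.34 ± 0.77 (SD, n = 2), a difference of 10.52 (SE 0.26, limma adjusted p = 6.41e-14).

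Genes 759850 and 501365 followed the same course at higher counts. Gene 759850 stood at 5.79, 6.07 and 5.56 in the maltose libraries and at 16.11 and 15.34 in the straw libraries, a 967-fold rise. Gene 501365 stood at 6.57, 6.26 and 6.23 on maltose and at 16.46 and 15.52 on straw, a 794-fold rise. Gene 501365 was the second highest of all genes on straw. On the log2 scale 759850 rose by 9.92 (SE 0.22, limma adjusted p = 3.75e-13) and 501365 by 9.63 (SE 0.23, 4.66e-14). After quantile normalisation, which covers only genes recovered in all libraries, the difference of 501365 was 6.53 and that of 848748 was 8.03.

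Genes 812358, 837354, 879066 and 815362 started from few reads on maltose. Gene 812358 held 6, 6 and 7 reads there and 10575 and 7815 reads on straw. Gene 837354 held 20, 16 and 12 reads on maltose and 18515 and 11409 on straw. Gene 879066 held 11, 15 and 12 reads on maltose and 16019 and 4861 on straw. The straw libraries of these genes lay far above every maltose library, but those of 879066 differed from each other by 1.64 on the log2 scale. Gene 815362 held 4, 2 and 4 reads on maltose, and 5210 and 1961 on straw. Differences of such genes depend on the pseudocount. With 5 in place of 1 the difference moved from 10.45 to 9.78 for 812358, from 9.72 to 8.70 for 815362, and from 9.53 to 9.12 for 879066. Gene 879066 also moved by library, with 8.71 without straw library a and 10.35 without library b.

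The remaining genes of the 12 were 802227, 873086, 873081, 802358 and 761073. Gene 802227 topped the order of levels on straw and held 85, 104 and 105 reads on maltose and 148389 and 104012 on straw. Gene 873086 stood at 4.73, 5.28 and 5.53 in the maltose libraries and at 14.99 and 14.36 in the straw libraries. Gene 873081 stood at 6.10, 6.01 and 6.32 on maltose and at 15.27 and 14.69 on straw. The 2 groups of libraries were separated by more than 8 on this scale for both genes. Gene 802358 rose 455-fold, from 6.36 ± 0.10 (SD, n = 3) to 15.19 ± 0.52 (SD, n = 2). Gene 761073 rose 331-fold, from 5.47 ± 0.39 to 13.84 ± 0.54. Over the 12 genes the largest limma adjusted p was 4.41e-11. Each SE pools the spread of a gene over the media with recovered libraries, and limma draws it towards that of genes of similar level. For 848748 and 879066 it is 0.26 and 0.36, below the straw SD of 0.77 and 1.16.

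**Figure D2:**
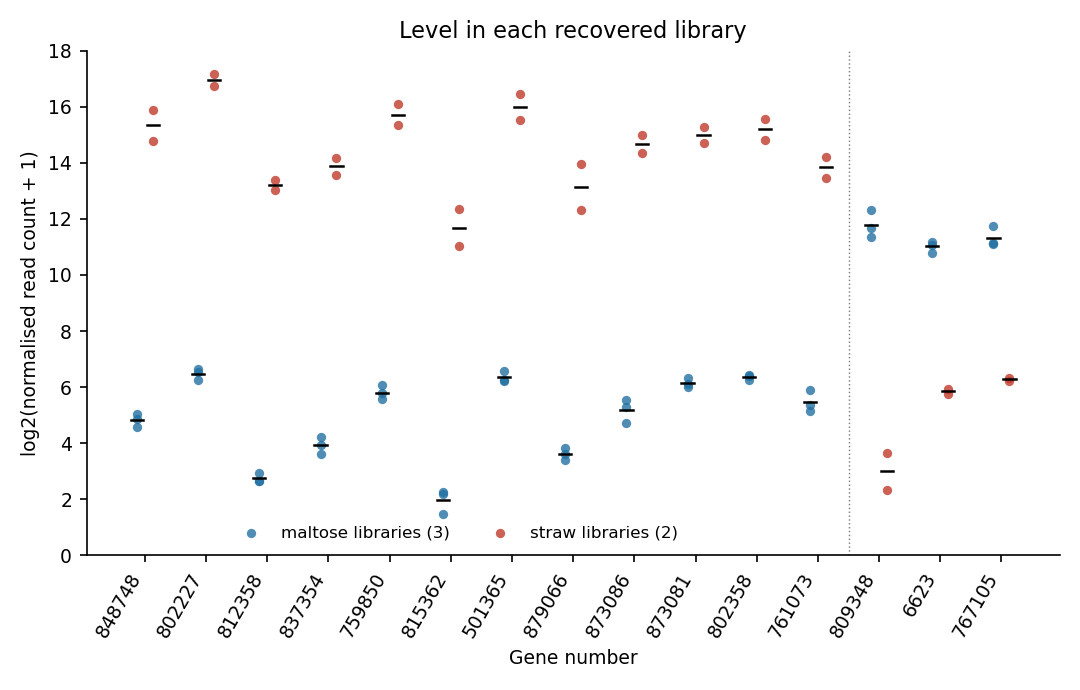
Level of each gene in each recovered library, as log2(normalised read count + 1), for the 12 largest rises (left of the dotted line) and the 3 tested genes among the 10 largest falls (right). Points are libraries, 3 on maltose and 2 on straw, and bars are means; no maltose point overlaps a straw point, and the straw points of 879066 are 1.64 apart.

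The largest falls concerned genes that were abundant on maltose. The 10 genes furthest below maltose had levels of 11.02 to 15.19 on maltose, with a median of 13.16, and of 2.99 to 9.57 on straw, with a median of 7.75. Maltose gave the highest of the 5 media for all 10, and for 168 of the 949 genes. Picking these 10 genes by a large fall itself favours a high maltose level and this rank. Only 3 of them could be tested, since the maltose libraries of the other 7 could not be recovered. Gene 809348 held 2968, 3745 and 5444 reads in the maltose libraries and 4 and 11 in the straw libraries. It fell by 8.79 (SE 0.39, limma adjusted p = 3.54e-11), from 11.79 ± 0.49 (SD, n = 3) to 2.99 ± 0.95 (SD, n = 2). Its difference was -8.17 with a pseudocount of 5, -8.13 without straw library a and -9.46 without library b. Gene 767105 stood at 11.14, 11.75 and 11.10 in the maltose libraries and at 6.23 and 6.31 in the straw libraries. It fell by 5.06 (SE 0.25, limma adjusted p = 1.27e-10). Gene 6623 held 2455, 2635 and 1882 reads on maltose and 60 and 50 on straw, and fell by 5.17 (SE 0.15, 2.02e-13).

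The 7 untested genes among these 10 had deposited values as far apart. Gene 165303 was at 14.87 on maltose and at 7.82 on straw, and gene 814419 was at 14.66 and 8.01. Gene 803418 was at 13.42 and 7.79, and gene 809339, the highest of the 10 on maltose, was at 15.19 and 9.57. The straw libraries of these 4 genes held 176 to 768 reads each, so the genes were low on straw but not at its floor. Gene 820688 was at 14.18 on maltose and at 8.89 on straw, gene 803204 at 12.89 and 7.71, and gene 806311 at 11.68 and 6.54. The 2 straw libraries lay within 0.48 of each other for each of the 7. No spread between maltose libraries is known for them.

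Genes of high level, at 13 or more on either medium, numbered 132. On straw 107 genes reached 13 and on maltose 81, and 56 genes reached it on both. Of the 132 genes, 49 were higher on straw by at least 1 and 21 lower, or 37.1% and 15.9%, against 32.2% and 13.5% of all 949 genes. The 51 genes at 13 or more on straw alone had a median of 8.24 on maltose, and 18 of them were below 7 there. The 25 genes at 13 or more on maltose alone had a median of 11.93 on straw, and 8 of them were below 10 there. The direction of these last differences is fixed by how the genes were picked.

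The 56 genes abundant on both media mostly kept their deposited level. Of these, 46 differed by less than 1, against 515 of all 949 genes, while 4 were higher and 6 lower on straw. The requirement of a high level on both media itself keeps such differences small. Gene 826215 had the highest level on maltose, 15.86, and the third highest on straw, 15.92. Genes 851399, 780103, 837717 and 807118 showed the smallest differences, from -0.05 to 0.05, at levels of 13.49 to 14.32. Centring each column on its median over the listed genes lowers every difference by 1.11, and puts these 4 genes at -1.05 to -1.16. Gene 876943 had the largest difference of the 56, from 13.74 on maltose to 15.89 on straw. Its straw libraries held 59988 and 58069 reads, close to equal. Gene 780450 was at 14.75 on maltose and at 15.76 on straw, and gene 808614, below 13 on maltose, rose from 10.60 ± 0.42 (SD, n = 3) to 15.89 ± 0.23 (SD, n = 2). That rise was 5.29 (SE 0.31, limma adjusted p = 5.38e-09). Gene 780450 is at -0.10 after that centring of columns.

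Other genes at the top of the maltose order were lower on straw but remained abundant. Gene 103613 was at 15.83 on maltose and 14.85 on straw, gene 774648 at 15.56 and 14.31, and gene 802875 at 15.53 and 13.83. Gene 609810 was at 15.51 on maltose and 13.75 on straw, and gene 810432 at 15.43 and 13.65. These differences, of -0.98 to -1.78, are of deposited values and were not tested. The 2 straw libraries of these 5 genes differed by 0.06 to 0.41.

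The read counts were redistributed between groups of genes. For each medium the normalised read counts of the 949 genes were summed, each taken back from its deposited log2 mean. The 306 genes higher on straw by at least 1 held 7.01% of this sum on maltose and 51.0% on straw. The 128 genes lower on straw held 28.9% on maltose and 5.12% on straw. The 12 largest rises alone held 0.0223% on maltose and 14.1% on straw, and the 10 largest falls went from 6.14% to 0.0771%. Each group was chosen by its difference between these media, so the direction of these shares is given, and only their size is information. In straw libraries a and b the 306 genes held 55.2% and 49.3%. The 10 highest genes of each medium held 19.9% on maltose and 20.0% on straw, and the single highest gene held 2.57% on maltose and 4.15% on straw.

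**Figure D3:**
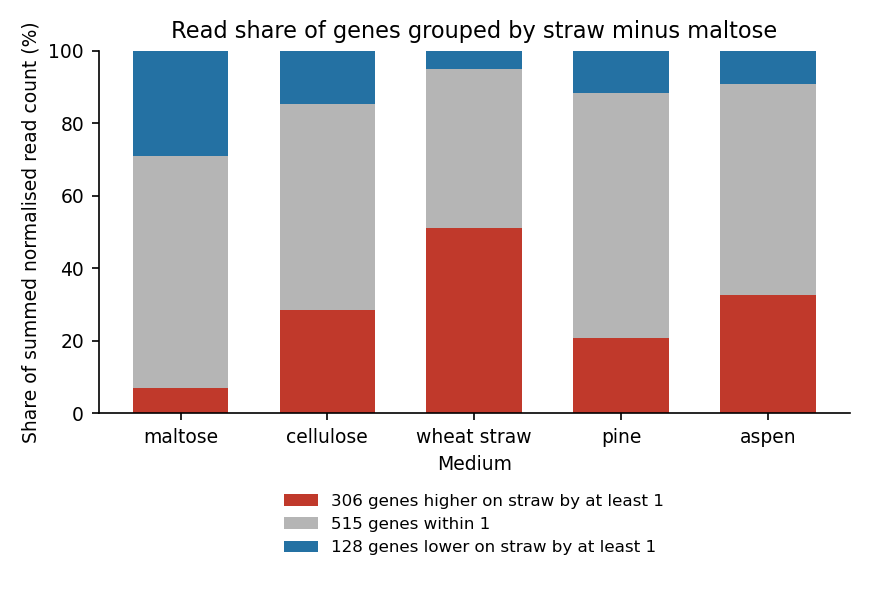
Share of the summed normalised read count of the 949 listed genes, in percent, on each of the 5 media, for genes grouped by the deposited difference between straw and maltose. The 306 genes higher on straw hold 7.01% on maltose, 51.0% on straw and 20.8% to 32.7% on the other solids; the groups were chosen from the maltose and straw values.

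The direction of change went with the level on maltose. Of the 33 genes below 3 on maltose, 24 were higher on straw by at least 1 and 0 were lower. Of the 226 genes from 7 to 9 on maltose, 91 were higher and 31 lower. Of the 113 genes from 11 to 13, only 9 were higher and 33 lower, and of the 81 genes at 13 or more, 4 were higher and 21 lower. The maltose level enters both the grouping and the difference, which by itself favours rises at low levels and falls at high ones.

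On the other solids the genes that rose most on straw had intermediate median levels, and pine stood nearest to maltose. The median level of the 12 largest rises was 5.32 on maltose, 7.32 on pine, 10.92 on aspen, 11.81 on cellulose and 14.83 on straw. All comparisons with maltose share its 3 libraries, so the media were also compared directly. Straw was higher than pine for all 12 genes by limma, by 5.49 to 8.90. It was higher than aspen for 11 of the 11 that could be tested, and higher than cellulose for 9 of 9. Over all genes tested, straw was higher for 31.5% and lower for 8.53% against pine, 20.2% and 9.64% against aspen, and 22% and 9.08% against cellulose. Genes at 13 or more on the other solid, 78 on pine, 79 on aspen and 95 on cellulose, could not be tested. On straw, 106 of the 107 values at 13 or more were recovered. This one-sided loss can tilt the balance towards straw. This balance depended on the scaling: after median centring straw was higher for 173 genes and lower for 280 against pine, 137 and 147 against aspen, and 131 and 122 against cellulose. The 12 genes were chosen for a high straw value, which favours such calls.

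Falls on straw had no such order among the solids. The median level of the 10 genes furthest below maltose was 13.16 on maltose, and 8.24 on pine, 8.49 on aspen, 8.16 on cellulose and 7.75 on straw. Straw was the lowest of the 5 media for 4 of them, a count that this choice of genes favours, and for 122 of the 949 genes. Single genes differed from this pattern. Genes 814419 and 809339 were at 13.62 and 13.73 on cellulose, against 14.66 and 15.19 on maltose and 8.01 and 9.57 on straw. Gene 767105 was at 10.53 ± 0.19 (SD, n = 3) on pine, against 6.27 ± 0.06 (SD, n = 2) on straw, a direct difference of -4.26 (limma adjusted p = 1.18e-09). On cellulose it was at 6.25 ± 0.48 (SD, n = 3), with a direct difference of 0.02 (SE 0.25, adjusted p = 0.94).

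**Figure D4:**
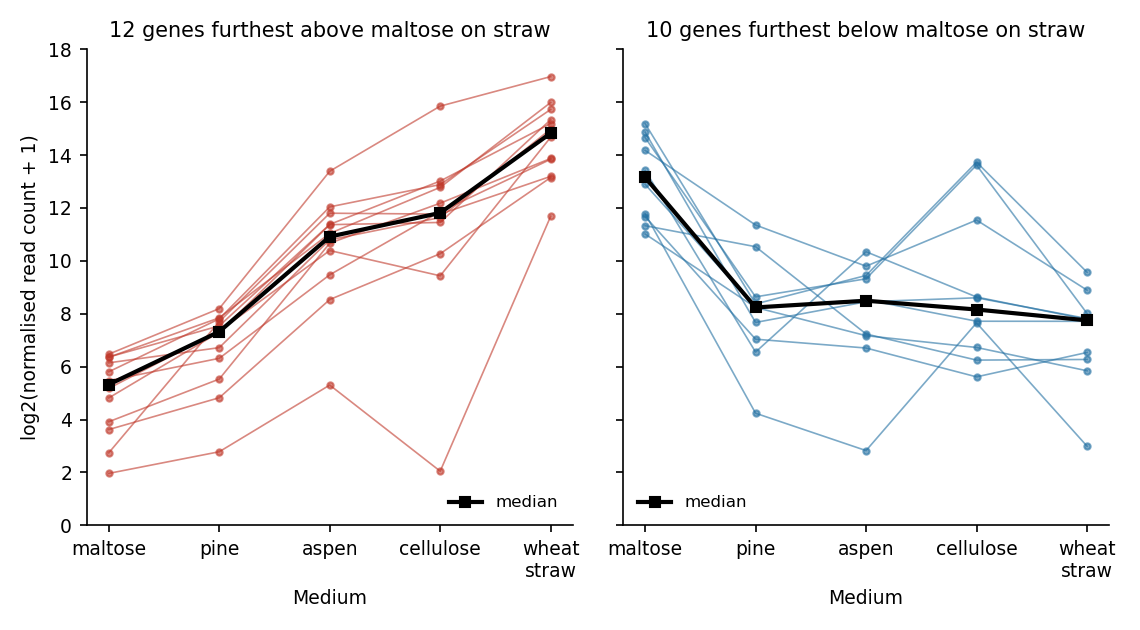
Deposited level, as log2(normalised read count + 1), on the 5 media for the 12 genes furthest above (left) and the 10 genes furthest below (right) their maltose level on straw. Thin lines join the values of 1 gene and the thick line joins the medians; media have no natural order, and the median of the left panel climbs from 5.32 on maltose to 14.83 on straw while the right panel drops from 13.16 on maltose to between 7.75 and 8.49 on all 4 solids.

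A few genes stood far higher on straw than on every other medium. Gene 815362, at 11.69 ± 0.94 (SD, n = 2) on straw, was at 2.05 on cellulose, 2.78 on pine and 5.30 on aspen. Gene 808921 held 10, 11 and 25 reads in the maltose libraries and 3872 and 3817 in the straw libraries, and rose by 8.18 (SE 0.52, limma adjusted p = 1.92e-09). It was at 6.88 on cellulose, 3.08 on pine and 4.24 on aspen. Gene 868651 rose by 5.94 (SE 0.34, limma adjusted p = 5.03e-10), to 9.74 ± 0.35 (SD, n = 2), and lay between 3.60 and 5.09 on the other solids.

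Genes 806789 and 815752 rose on straw while their levels on the other solids were below that on maltose. Gene 806789 stood at 4.82, 4.58 and 5.69 in the maltose libraries and at 9.15 and 8.58 in the straw libraries. Its deposited level was 1.77 on cellulose, 1.13 on pine and 3.12 on aspen, where the libraries held 8, 5 and 26 reads in all. Gene 815752 held 37, 43 and 60 reads in the maltose libraries, 204 and 243 in the straw libraries, and 18, 1 and 11 reads in all on cellulose, pine and aspen. Against maltose, 806789 rose by 3.83 (SE 0.63, limma adjusted p = 6.54e-05) and 815752 by 2.45 (SE 0.50, 0.000455). Of the genes that rose on straw, 3 were at least 1 below maltose on each other solid. The other one, 853269, was noticed after its values were seen, and was at 8.55 on maltose, 9.76 on straw and 6.54 to 7.45 on the other solids. Gene 853269 rose by 1.22 (SE 0.23, limma adjusted p = 0.000214), but its difference was under the limit of 1 after median centring, at 0.23, centring on the median difference, at 0.86, and quantile normalisation, at 0.18.

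Other genes that rose on straw had higher deposited levels on each of the other solids. Gene 814300 was at 6.66 ± 0.21 (SD, n = 3) on maltose and rose to 9.26 ± 0.16 (SD, n = 2) on straw, by 2.61 (SE 0.14, limma adjusted p = 2.55e-10). It was at 11.29 on cellulose, 10.12 on pine and 9.96 on aspen. Directly, straw was below cellulose by 2.03 (limma adjusted p = 1.38e-08), and the differences from pine and aspen, of -0.86 and -0.70, were under the size needed for a call. Gene 810634 was at 6.56 on maltose, 7.62 on straw and 12.05 on pine, and gene 766855 at 9.28 on maltose, 10.43 on straw and 12.73 on cellulose. The direct difference of 810634 from cellulose, -0.55, and that of 766855 from pine, -0.57, were too small for a call. The rises of these last genes, 1.06 for 810634 and 1.15 for 766855, lie close to the limit of 1. Both were under it after median centring, at 0.07 and 0.17, after centring on the median difference, at 0.70 and 0.80, and after quantile normalisation, at 0.14 and 0.30. Without straw library a that of 810634 was 0.81, and that of 766855 was 0.89 without straw library b and 0.98 without maltose library a.

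Some genes were lower on straw than on maltose and than on every other solid. Gene 814979 held 152, 247 and 504 reads in the maltose libraries and 15 and 9 in the straw libraries, while it was at 10.11 on cellulose and 9.07 on aspen. It fell by 4.21 against maltose (SE 0.54, limma adjusted p = 6.21e-06), with -3.72 without maltose library c. Gene 871499 stood at 8.78, 8.90 and 9.07 in the maltose libraries and at 7.12 and 6.97 in the straw libraries. It fell by 1.87 (SE 0.23, limma adjusted p = 3.89e-06), and was at 8.59 on pine, 10.03 on aspen and 10.95 on cellulose. Gene 449242 held 15, 15 and 13 reads on maltose and 0 and 2 on straw. Its reads per library were 12.5-fold fewer on straw after scaling, with an exact 95% interval of 3.26 to 107 that covers counting error only. Its log2 difference was -2.97 (SE 0.44, limma adjusted p = 2.51e-05), and -1.58 with a pseudocount of 5.

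The 2 straw libraries differed from each other in the genes that rose most. Library a was above library b for 522 of the 948 genes recovered in both, or 55.1%. Among genes higher on straw by at least 4, it was above for 65 of 91 (71.4%), with a median gap of 0.34. Among those higher by at least 6 it was above for 32 of 40, and among those higher by at least 8 for 15 of 16, with a median gap of 0.68. All 12 of the largest rises were higher in library a. Among the 100 genes that fell, library a was above for 44, with a median gap of -0.05. The size of the largest rises therefore differed between the straw libraries by more than that of other genes. A fit without 1 straw library holds no spread between straw libraries, so its SE rests on the other media. Counts of calls from such fits cannot show whether the calls withstand the difference between the straw libraries. Genes with a straw SD over 0.5 made up 31 of the 297 that rose. One of them, 868515, held 6, 2 and 8 reads in the maltose libraries and 28 and 8 in the straw libraries. It rose by 1.65 (SE 0.50, limma adjusted p = 0.00875), and its difference without straw library a was 0.84, under the limit of 1.

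**Figure D5:**
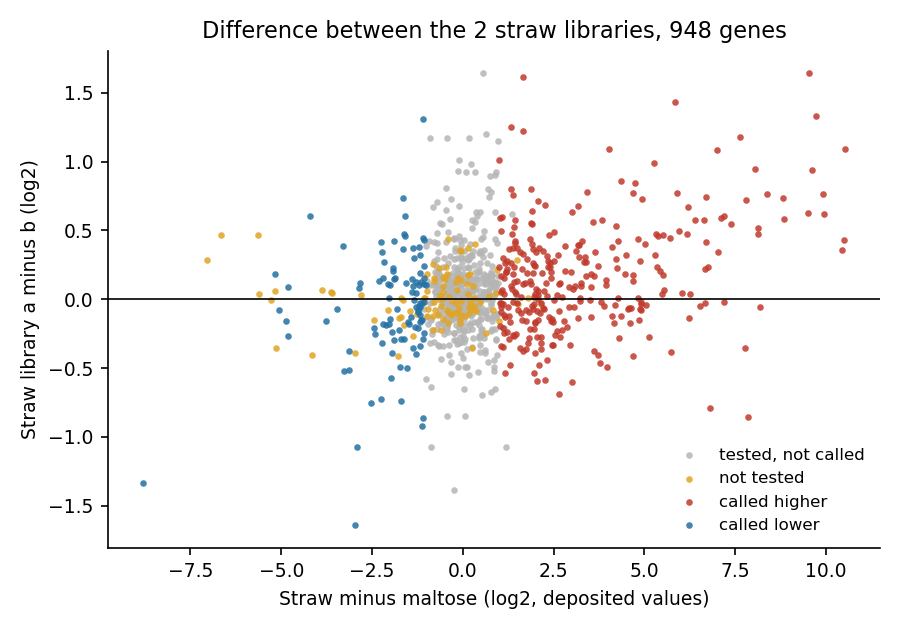
Difference between straw libraries a and b on the log2 scale (vertical axis) against the deposited difference between straw and maltose (horizontal axis) for 948 genes. Points to the right of 8 lie above 0 in 15 of 16 cases, whereas over all genes 55.1% lie above 0.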

How the data were processed

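Mycelial RNA was sequenced in pairs of reads on an Illumina HiSeq 2500, per the labels' protocols. TopHat2, HTSeq and DESeq 1.5 are named, without a role, per the submitters' processing notes. No genome build is stated in the sources available. Per the file headers, the authors deposited 1 normalised log2 read count per gene and medium, for 949 genes.

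Each deposited value was searched for whole reads r and library factors f whose log2(r x f + 1) average to it. All straw values matched with 2 libraries, and searched values of the other media with 3. On straw 948 values gave exactly 1 set of reads, and 0 of 949 decoys shifted by 1e-06 gave any. On maltose 846 values gave 1 set, 22 gave several, and 81 at 13 or more were not searched. There 19 decoys gave a set, all from level 9. In simulated tables every single set found was the true one. Replicates differed beyond sampling noise (chi-square over degrees of freedom between 8.39 and 19.6 on maltose and 96.2 on straw), so none was counted as a duplicate. This ratio grows with read number. On straw it covered 942 genes, those at 13 or more included, and on maltose 830 to 835 genes below 13. The values of the 2 media are therefore not alike. Over the 777 genes recovered in all libraries the median SD was 0.13 on straw (n = 2) and 0.16 on maltose (n = 3). Intervals cover counting error only.

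The 14 libraries entered limma 3.58.1 (R 4.3.3) as log2(r x f + 1), with 1 mean for each medium and an intensity trend. Benjamini-Hochberg adjustment covered all genes tested in a comparison. In a simulation of straw against maltose over 846 genes 100 of 100 genes given a log2 change of 1.5, 100 of 100 given one of 3 and 0 of 646 unchanged ones were called. All simulated libraries, straw included, had the median spread of the maltose libraries (dispersion 0.00426), and changed genes had more than a few reads. The simulation therefore does not cover genes whose straw libraries lay far apart, or genes with few reads. Alternatives were other scalings, a pseudocount of 5, a level filter, voom weights, other thresholds and leaving out libraries. Named genes are the 12 largest rises and 10 largest falls, the 6 highest on each medium, the 4 steadiest at 13 or more on both, and, among called genes, those furthest above or below the other solids and those with straw libraries furthest apart. The members, lists and rules were chosen with earlier results of these data known.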

Additional observations from a re-analysis of the deposited data

Results flagged for a closer look

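Of the genes called against maltose, the 5 furthest above and 3 furthest below the nearest other solid also differed from that solid by a direct limma test, and other genes did so too. Gene 815362 was above aspen by 6.38 (SE 0.44, limma adjusted p = 2.12e-08), and gene 806789 by 5.75 (SE 0.63, 1.94e-06). Above cellulose were 815752 by 5.20 (SE 0.50, limma adjusted p = 4.33e-07), 808921 by 5.07 (SE 0.52, 9.21e-07) and 868651 by 4.65 (SE 0.34, 2.36e-08). Others were below pine, where the difference was -2.85 for 814979 (SE 0.54, limma adjusted p = 0.000306), -1.55 for 871499 (SE 0.23, 3.23e-05) and -1.80 for 449242 (SE 0.44, 0.00218). Gene 449242 held 2 reads on straw and 15 on pine, so its value depends on the pseudocount. The genes were ranked by these gaps, which favours large values.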

How the results depend on the processing

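No paired analysis was possible because the recovered libraries carry no replicate number. The counts of rises and falls against maltose were 297 and 100, and leaving out each maltose library in turn gave 289 to 300 and 92 to 103. Median centring gave 197 and 308, and quantile normalisation 174 and 236. A log2 difference of at least 2 left 193 and 34, and adjusted p alone called 415 and 199. By size, the 306 higher and 128 lower genes became 182 and 422 after columns were centred on their medians, and 194 and 49 at a size of at least 2. The direct comparisons gave 184 higher and 76 lower for straw against cellulose, 270 and 73 against pine, and 172 and 82 against aspen. These counts leave out genes at 13 or more on the other solid, which can tilt them towards straw. Median centring gave 131 and 122 for cellulose, 173 and 280 for pine, and 137 and 147 for aspen. Centring on the median difference gave 129 lower for pine. Both kinds of centring shift all differences alike, whereas quantile normalisation moves genes by unequal amounts and covers fewer genes. The pseudocount, the level filter, voom weights and fitting only straw and maltose libraries kept both counts within 1.5 times. The other thresholds were applied to the counts only. Of the 27 tested named genes, 24 kept their call in every other alternative that covered them. The exceptions were 766855, 810634 and 868515, which fell under the limit after median centring, at 0.17, 0.07 and 0.67, and without 1 straw library. Centring on the median difference also ended the calls of 766855, at 0.80, and 810634, at 0.70. Quantile normalisation ended those of all 3, at 0.30, 0.14 and 1.10, and fitting only straw and maltose libraries ended that of 868515, at 1.65. Among the 19 untested named genes, 780450 was at -0.10 after column centring. Reads recovered per gene limit the genes below level 3, and no spread is known for genes at 13 or more on maltose.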

Other observations

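Among genes nearly silent on maltose, 33 had a level below 3, and 21 of them rose on straw, against 297 of the 846 genes tested. Picking genes by a low maltose level itself favours rises. Gene 936201, noticed after its values were seen, held 1 read over the 3 maltose libraries and 66 over the 2 straw libraries, a ratio of 113 after scaling with an exact 95% interval of 19.7 to 4547. In the other direction, gene 789979 held 13 reads on maltose and 3 on straw, and was not called. Its ratio of straw to maltose was 0.397, with an exact 95% interval of 0.0725 to 1.44.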
